A study of Mus musculus with 24 samples.

Results

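Oxidative phosphorylation is carried out by 5 protein complexes of the inner mitochondrial membrane, most of whose subunits are encoded in the nucleus. The genes described here are the protein-coding mouse genes whose symbols begin with Ndufa, Ndufb, Ndufc, Ndufs or Ndufv (complex I), Sdha to Sdhd (complex II), Uqcr (complex III), Cox4 to Cox8 (complex IV) or Atp5 (complex V). Of the 37621 gene entries in each of 24 count tables, 93 matched these names, and 90 of them had at least 10 counts in at least 3 libraries, as did 17915 entries in all. The 90 are 36 subunits and 8 assembly factors of complex I, the 4 subunits of complex II, 8 of complex III, 17 genes of complex IV, 16 subunits of complex V, and Atp5s, which is named with complex V. The 3 genes that did not pass were isoforms of complex IV: Cox7b2 had 111 counts over the 24 libraries and at most 16 in any of them, Cox8b had 67 and at most 12, and Cox8c had 0. Apart from this minimum of counts, the names alone set the list, which was drawn up with earlier results of these data known.

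The libraries were made from total RNA of dissected cerebellum, cortex, hippocampus and olfactory bulb of C57BL/6 mice, either wild type or Cdr1as knockout, with 3 libraries for each region and genotype. Cdr1as is a circular RNA of neurons that binds the microRNA miR-7, and the knockout animals lack it. RNA was extracted with TRIzol, freed of ribosomal RNA by RNase H and made into libraries with a stranded total RNA kit. The labels give no age, and they do not say whether replicates of a group, or libraries of one number in different regions, came from separate animals. The p-values therefore measure how much these particular samples vary, and that variation may be technical.

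Complexes I to IV pass electrons from NADH and succinate to oxygen and, except for complex II, pump protons out of the mitochondrial matrix. Complex V, the ATP synthase, lets the protons back and makes ATP, from which neurons run the ion pumps that restore their membrane potential. Complexes I, III, IV and V also hold subunits encoded in mitochondrial DNA, while complex II is encoded by nuclear genes alone. Several complex IV subunits have isoforms whose use differs between tissues.

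Promoters of many of these genes are known for binding sites of NRF1, a transcription factor that activates mitochondrial genes and binds a palindrome with the core letters CGCATGCG. The RefSeq promoter windows (GRCm38.p6, from 250 bases before to 50 after a gene's start) held 72 of the 90 genes, and this core, which reads the same on both strands, stood in the windows of 11 of them. That is 15.3% of the genes with a window, or 14.3% of their 77 windows. Of all 32851 windows of the same length, 1.87% hold the core. The 11 are Uqcr11, Uqcrc1, Cox6a1, Ndufa8, Ndufa11, Ndufaf4, Ndufaf5, Atp5g2, Atp5j, Atp5k and Atp5l. Shown 5′ to 3′ on the gene's strand, with the core in capitals, are 6 of these stretches, from genes to which the results below return.

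Uqcr11 (complex III, chr10:80406808-80406837, minus strand): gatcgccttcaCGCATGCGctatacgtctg
Uqcrc1 (complex III core, chr9:108936668-108936697, plus strand): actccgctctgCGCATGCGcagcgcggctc
Cox6a1 (complex IV, chr5:115349101-115349130, minus strand): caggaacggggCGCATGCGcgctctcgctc
Ndufa11 (complex I accessory, chr17:56717692-56717721, plus strand): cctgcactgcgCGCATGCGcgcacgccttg
Ndufaf5 (complex I assembly, chr2:140170652-140170681, plus strand): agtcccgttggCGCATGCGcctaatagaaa
Atp5l (complex V membrane part, chr9:44920963-44920992, minus strand): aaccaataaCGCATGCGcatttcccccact

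Counted from the start of the gene, the first base of the core is at −5 in Uqcr11, −59 in Ndufa11, −161 in Cox6a1 and −241 in Atp5l, and at 32 in Uqcrc1 and 18 in Ndufaf5. The letters CCGGAAG, the core bound by ETS factors such as GABP, were found on either strand in windows of 18 of the 72 genes, or 25%. Counted by window, the share was 23.4% of the 77, against 8.86% of all windows. These matches describe the letters of the windows and are not measured sites.

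The count tables held 5.18 to 30.46 M gene counts per library (M, mega), with a median of 16.925 M, and cerebellum knockout 1, olfactory bulb wild type 1 and olfactory bulb knockout 2 held under 8 M. These 3 also detected the fewest genes, 13741, 16483 and 14393, where the median library detected 21198.5. The 90 genes took 0.554% to 0.995% of the gene counts, and the 13 mitochondrially encoded protein genes had a count of 0 in each library, so only the nuclear subunits can be described. Cdr1as had 5617 to 130878 counts in the wild-type libraries and 0 to 13 in the knockout libraries, which matches the labels. The summed markers of each region were higher in its 6 libraries than in any library of another region, by the narrowest margin in the hippocampus (503 to 640 CPM, gene counts per M of library size after TMM scaling, against at most 268). Each table also lists reads that were counted in no feature, and their share of all entries ran from 20.34% to 62.92%. Which parts of a gene counted as features is not stated, so reads in introns of annotated genes may be among them. The share was lowest in cortex wild type 1 and spanned 20.34% to 56.19% in the cortex and 37.01% to 55.45% in the hippocampus. It spanned only 53.72% to 61.54% in the cerebellum and 52.31% to 62.92% in the olfactory bulb. Hippocampus wild type 1 stood apart from the other hippocampal libraries. It had the lowest share of reads in no feature in its region, at 37.01%, and all 90 genes above the regional mean. Its share of reads without a unique alignment was the highest of all 24, at 21.41%.

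In wild type, levels per kilobase of annotated exon (CPM per kb, mean of the 4 regions) had a median of 35.0 over the 90 genes. The highest belonged to Cox8a, a small complex IV subunit, at 253 CPM per kb, followed by Atp5a1 and Atp5b, the alpha and beta subunits that form the catalytic head of ATP synthase, at 189 and 175, then by Cox6a1 at 152, Cox4i1 at 133 and Cox6b1 at 125. On the CPM scale Atp5b was at 770, 713 and 821 in the cerebellum, 848, 590 and 862 in the cortex, 912, 699 and 694 in the hippocampus and 671, 624 and 714 in the olfactory bulb (wild type 1, 2 and 3). The regions overlap for Atp5b, whose lowest value is in the cortex and whose highest is in the hippocampus, each in 1 library. The lowest level per kilobase was that of Atp5l, a membrane subunit of complex V, at 0.626, followed by the complex IV isoforms Cox4i2 at 0.886 and Ndufa4l2 at 1.02. Atp5l has 8 annotated pseudogene copies that match its coding sequence at 95% or more over 100 bases or more. The counting set apart reads without a unique alignment, so reads shared with a copy may be missing from its count. Its level is therefore uncertain. Its level per kilobase is also divided by 6443 bases of annotated exon, while its coding sequence has 309.

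In each of the 5 complex IV families with a common and a tissue form among the 90 genes, the common form was the more abundant per kilobase. Cox4i1, the common form of the subunit that senses ATP, was at 133 CPM per kb and its hypoxia-linked isoform Cox4i2 at 0.886. Cox6a1 was at 152 and the heart and muscle form Cox6a2 at 1.96. Cox6b1 was at 125 and the testis form Cox6b2 at 1.09, Cox7a2 was at 83.4 and the heart and muscle form Cox7a1 at 1.97, and Ndufa4 was at 74.1 and Ndufa4l2 at 1.02. Cox7a2l, a protein linked to supercomplexes of complexes III and IV, was at 38.9. In the c ring of ATP synthase, for which 3 genes encode the same mature protein, Atp5g3 was at 55.5, Atp5g1 at 16.5 and Atp5g2 at 10.5.

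**Figure D1:**
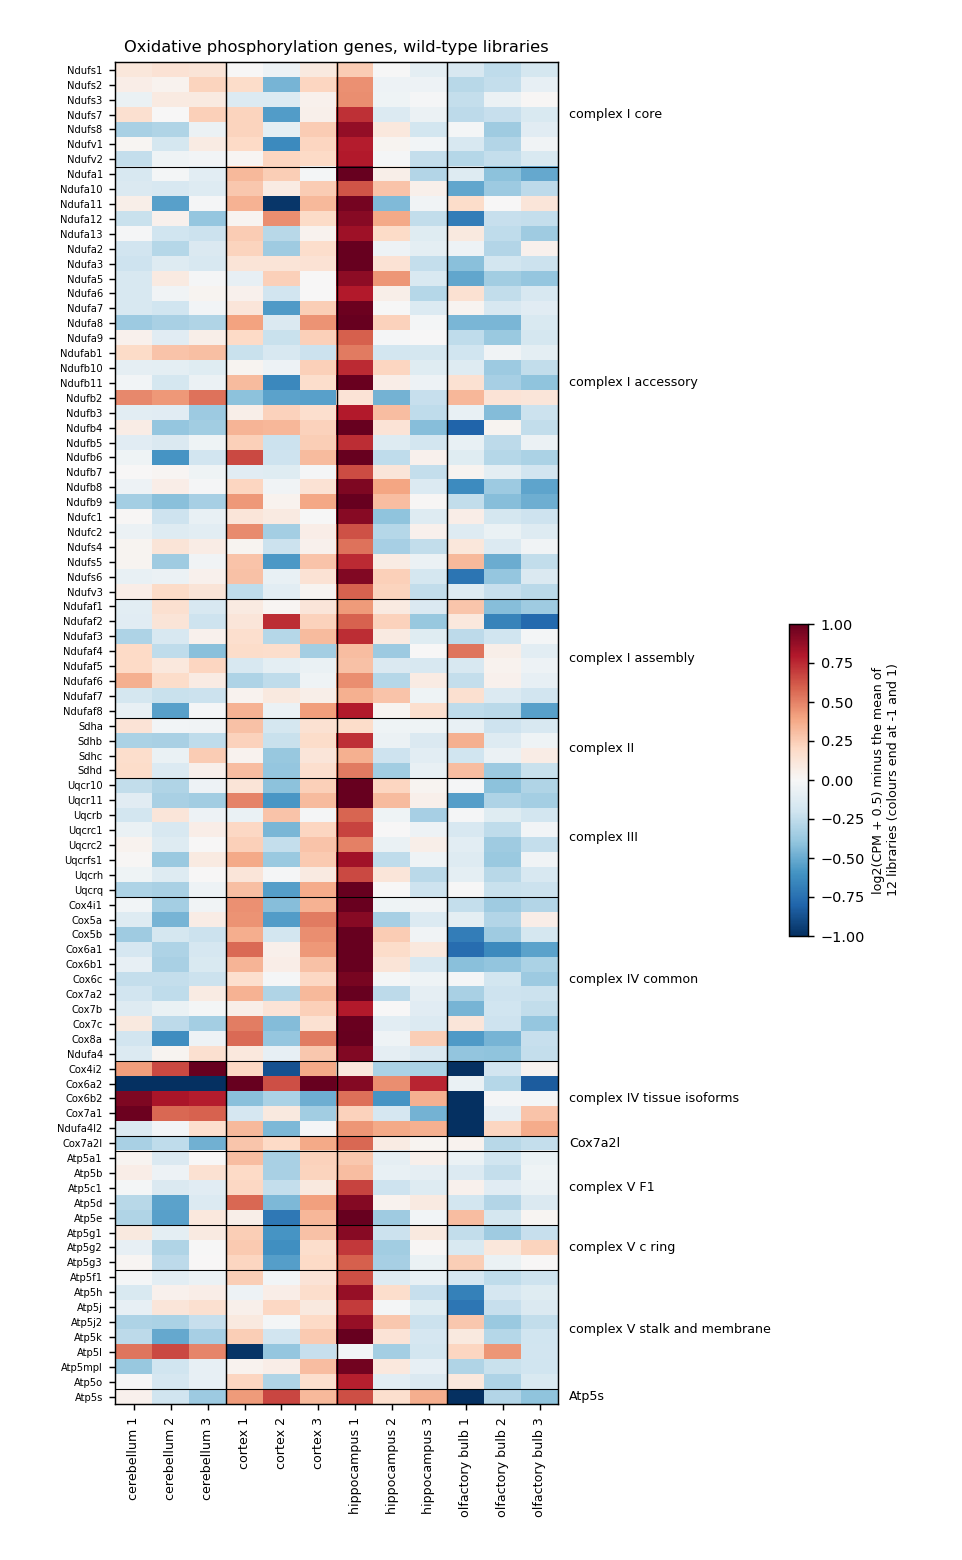
Levels of the 90 genes in the 12 wild-type libraries, each drawn as log2(CPM + 0.5) minus that gene's mean over the 12, with colours ending at −1 and 1; rows are genes grouped by complex and columns are libraries by region. Hippocampus wild type 1 is the column that is high for nearly all genes, cortex wild type 2 is lower than the other cortex libraries for many complex IV and complex V genes, and Cox6a2, Cox6b2, Cox7a1, Cox4i2, Ndufb2 and Atp5l show patterns by region that differ from the rest.

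The first comparison asked whether the family differs between the 4 regions of the wild-type brain. A total of 18 of the 90 genes differed across regions (edgeR quasi-likelihood F-test, Benjamini-Hochberg adjusted p under 0.05 over all genes tested, the threshold used throughout), while 59.3% of the 16995 genes tested did. By role, 7 of the 29 accessory subunits of complex I differed, 2 of 8 in complex III, 4 of the 11 common complex IV subunits, 1 of its 5 tissue isoforms, Cox7a2l, 2 of the 8 stalk and membrane subunits of complex V, and Atp5s. None of the 7 core subunits of complex I, its 8 assembly factors, the 4 subunits of complex II, the 5 of the F1 head or the 3 c ring genes passed. Of neighbouring pathways, those that passed were 11 of 18 genes of the citrate cycle and pyruvate dehydrogenase, 12 of 17 of glycolysis, 8 of 16 regulators of mitochondrial biogenesis and 1 of 8 carriers that exchange metabolites with the matrix. The number called moved to 30 without cortex wild type 2 and to 38 without hippocampus wild type 3. It was 28 with the share of reads in no gene as a covariate, 13 of them among the 18. These alternative counts were not set beside a percentage over all genes.

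The ratio of the highest to the lowest regional mean CPM had a median of 1.5 over the 90 genes. It was under 1.5 for 45 of them and at least 2 for 10: Ndufb2, Cox8a, Uqcr11, Atp5s, Atp5l, Cox6a1, Cox7a1, Cox6b2, Cox4i2 and Cox6a2. The hippocampus held the highest mean of 72 genes and the lowest of 0, and the olfactory bulb held the lowest mean of 60. The summed level of the 90 genes was 6270 ± 295 CPM in the cerebellum, 7000 ± 1150 in the cortex, 7800 ± 2510 in the hippocampus and 5770 ± 241 in the olfactory bulb (SD, n = 3). The 3 hippocampal sums were 10700, 6440 and 6260 CPM, so the mean of that region rests on wild type 1, and the sums of its other 2 libraries lie within the range of the cerebellum and cortex. In bulk tissue, fewer cells of a type and less RNA per cell cannot be told apart.

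Each region was then set against the mean of the other 3. In the cerebellum 9 genes passed, 6 higher and 3 lower, while 22.7% of all genes tested were higher and 24.1% lower. In the cortex 3 were higher and 2 lower, against 19% and 14.5% of all genes. In the hippocampus 15 were higher and 0 lower, against 15.3% and 10.6%, and in the olfactory bulb 0 were higher and 10 lower, against 18.4% and 17.5%. The median log2 difference of the family was −0.16 in the cerebellum, 0.09 in the cortex, 0.31 in the hippocampus and −0.25 in the olfactory bulb, while the median of all genes lay within 0.02 of 0 in each. Single libraries decided much of these counts. Without hippocampus wild type 1, 2 genes passed in the hippocampus (Cox6a2 and Ndufb2) with a median of −0.01, and 19 passed in the cortex. Without hippocampus wild type 3, 37 passed in the hippocampus and 25 in the olfactory bulb. Without cortex wild type 2, 10 passed in the cortex and 22 in the olfactory bulb, without cortex wild type 1 or 3 there were 2 and 3 in the cortex, and without cortex wild type 3 there were 5 in the olfactory bulb. In the cerebellum 4 passed without any 1 of its own libraries, and they were Cox6a2, Ndufb2, Cox7a2l and Atp5l each time. In the olfactory bulb, 6 passed without its wild type 1 or 3 or without cerebellum wild type 3, and 4 without its wild type 2. Libraries of one number deviated together between cerebellum and cortex and between cerebellum and olfactory bulb, and with the replicate number as a block 14 genes passed in the cerebellum. With the share of reads in no gene as a covariate, the cortex had 1 gene higher and 14 lower with a median of −0.26. The hippocampus had 12 higher and 1 lower with 0.21, the cerebellum 11 higher and 2 lower with 0.05, and the olfactory bulb 4 higher and 3 lower with 0.03. Of the genes called in the main fit, 2 of 5 were kept in the cortex and 3 of 10 in the olfactory bulb. In the hippocampus 11 of 15 were kept and in the cerebellum 8 of 9. The wild-type share spanned 20.34% to 56.19% in the cortex and 58.71% to 62.92% in the olfactory bulb. This fit therefore cannot fully separate region from share. No percentage over all genes was set beside the alternative fits, so their counts do not separate the family from all genes.

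Cox6a2, the heart and muscle isoform of a regulatory complex IV subunit, differed most between regions, from a low level. Its counts in wild type 1, 2 and 3 were 2, 0 and 0 in the cerebellum, 47, 17 and 92 in the cortex, 55, 23 and 40 in the hippocampus and 7, 16 and 4 in the olfactory bulb. In the knockout libraries they were 0, 1 and 0, then 107, 51 and 48, then 21, 28 and 27, and 16, 24 and 11. On the CPM scale no cerebellar library of either genotype overlaps any library of another region. Relative to gene counts, wild-type cortex was 90.3 times the cerebellum (95% interval 24.6 to 752 from the counts alone), hippocampus 58.7 times (15.9 to 491) and olfactory bulb 20.8 times (5.23 to 181). The fitted log2 difference was −5.32 in the cerebellum (SE 0.68, adjusted p = 1.66e-05, edgeR), 3.01 in the cortex (SE 0.40, adjusted p = 5.75e-05) and 2.21 in the hippocampus (SE 0.41, adjusted p = 0.00112), and near 0 counts these values depend on the prior count of the fit. Each of these calls held in all 19 alternatives, with −7.68 to −4.94, 2.59 to 3.80 and 2.08 to 3.0.

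Cox6a2 is a muscle gene, so genes of striated muscle were read beside it. Their summed level was 2.74 to 3.91 CPM in wild-type cerebellum, 8.9 to 10.8 in the cortex, 6.15 to 8.5 in the hippocampus and 3.51 to 6.55 in the olfactory bulb. The 10 genes of that list did not share an order. In wild-type cerebellum, cortex, hippocampus and olfactory bulb the fast myosin heavy chains ran like Cox6a2: Myh1 had 5, 49, 36 and 5 counts, Myh2 had 2, 60, 33 and 2, and Myh4 had 4, 33, 32 and 1. Acta1, skeletal muscle actin, had 61, 295, 227 and 135. Ckm, the muscle creatine kinase, had 1, 0, 1 and 1 and was at 0 in 19 of the 24 libraries, and the other 5 (Actn3, Myl1, Mylpf, Tnni2, Tnnt3) had at most 56 counts in a region. Among the markers of parvalbumin interneurons, Lhx6, a transcription factor of cortical interneurons, had 24 counts in wild-type cerebellum, 949 in the cortex, 850 in the hippocampus and 18 in the olfactory bulb. Pvalb itself ran differently, with 15021, 1229, 1115 and 68 counts in the same order. Kcnc1 and Syt2 also had their highest wild-type mean CPM in the cerebellum. Gad1 and Erbb4 had it in the olfactory bulb, and Tac1, like Lhx6, in the cortex. Summed, the 7 markers of that list were at 2020 to 2300 CPM in wild-type cerebellum and 842 to 1040 in the cortex. The hippocampus had 679 to 742 and the olfactory bulb 2140 to 2190. Much of the sum came from Gad1 in the olfactory bulb (wild-type mean 1640 CPM). In the cerebellum much of it came from Kcnc1 and Syt2 (798 and 600). Lhx6, Pvalb and the myosins were singled out after their values were seen, and the part of any of these cells in the level of Cox6a2 was not tested.

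Ndufb2, an accessory subunit in the membrane arm of complex I, followed another order. It was at 42.7, 41.3 and 44.5 CPM in wild-type cerebellum, 33.5, 21.8 and 25.9 in the hippocampus, 38.4, 33.4 and 33.1 in the olfactory bulb and 22.7, 20.8 and 20.7 in the cortex. The cerebellum is above all other libraries and the cortex below nearly all, with an overlap only between cortex wild type 1 and hippocampus wild type 2. Ndufb2 was higher in the cerebellum by 0.66 on the log2 scale (SE 0.11, adjusted p = 0.000224, edgeR) and lower in the cortex (log2 −0.68, SE 0.12, adjusted p = 0.000665), and both calls held in all 19 alternatives. Cox7a2l was at 44.7, 46.9 and 40.1 CPM in the cerebellum, 68.1, 64.7 and 73.1 in the cortex, 84, 59.3 and 57.3 in the hippocampus and 57.5, 46.2 and 47.6 in the olfactory bulb. It was lower in the cerebellum (log2 −0.48, SE 0.12, adjusted p = 0.00479, edgeR), which held in all 19 alternatives, and the cerebellum overlaps only the olfactory bulb. Cox7a2l has 1 annotated near-identical pseudogene copy, so its level carries that uncertainty. Its higher level in the cortex (log2 0.38) was lost without cortex wild type 1 (adjusted p = 0.064, edgeR) or wild type 3 (0.112) and with the covariate (0.248).

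Ndufb9, a complex I accessory subunit, was lower in the cerebellum (log2 −0.51, SE 0.17, adjusted p = 0.0252, edgeR), a call lost without any 1 cerebellar library (0.0673 to 0.0992). Ndufab1, the mitochondrial acyl carrier protein in complex I, was higher there (log2 0.34, adjusted p = 0.041, edgeR), and 11 of the 19 alternatives lost that call, leaving out any 1 library of the cerebellum or the olfactory bulb among them; it has 2 near-identical copies.

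Another 3 tissue isoforms were higher in the cerebellum, each at a few CPM at most. Cox6b2, the testis form, was at 2.42, 2.19 and 2.14 CPM in wild-type cerebellum, 0.646, 0.724 and 0.588 in the cortex, 1.74, 0.518 and 1.46 in the hippocampus and 0, 1.02 and 1.01 in the olfactory bulb. Cox7a1, of heart and muscle, was at 2.32, 1.63 and 1.65 CPM in the cerebellum, 0.775, 1.03 and 0.627 in the cortex, 1.18, 0.777 and 0.535 in the hippocampus and 0, 0.852 and 1.25 in the olfactory bulb. Cox4i2 was at 0.98, 1.25 and 1.77 CPM in the cerebellum and at most 0.941 elsewhere. For each of the 3 the wild-type cerebellum stands above every other wild-type library. The log2 differences were 1.41 for Cox6b2 (SE 0.46, adjusted p = 0.0211, edgeR), 1.24 for Cox7a1 (SE 0.47, adjusted p = 0.0424) and 1.37 for Cox4i2 (SE 0.51, adjusted p = 0.0416). At these counts the calls were fragile: that of Cox6b2 was lost without any 1 cerebellar library (adjusted p = 0.0563 to 0.0782, edgeR), that of Cox4i2 without any 1 of them, hippocampus 2 or 3 or olfactory bulb 2 (0.0569 to 0.19), and that of Cox7a1 without those or cortex 1 or 3 (0.0504 to 0.183). Cox4i2 is known from pericytes, and the summed markers of mural cells (pericytes and vascular smooth muscle) were at 230 to 251 CPM in the cerebellum, 231 to 258 in the cortex, 279 to 281 in the hippocampus and 248 to 291 in the olfactory bulb. Of the 10 genes in that sum, the pericyte channel subunits Abcc9 (mean 18.3, 17.4, 15.5 and 11 CPM in that order) and Kcnj8 (2.86, 2.71, 2.58 and 2.06) were highest in the cerebellum, and the other 8 were not. The part of mural cells in these levels was not tested.

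**Figure D2:**
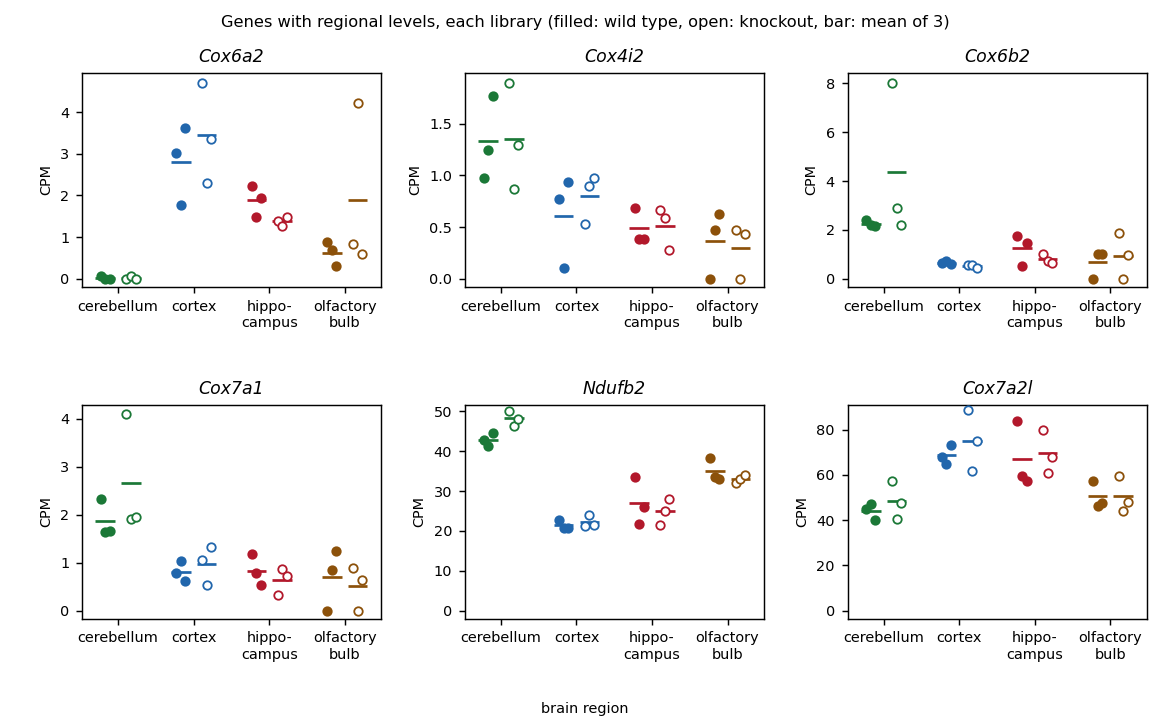
CPM of 6 genes in each of the 24 libraries, by region, with filled points for wild type, open points for knockout and a bar for the mean of 3 libraries. Cox6a2 is at or near 0 in the 6 cerebellar libraries, Cox4i2, Cox6b2, Cox7a1 and Ndufb2 are higher in wild-type cerebellum than in any other wild-type library, and Cox7a2l is lowest in the cerebellum on average in wild type. Cerebellum knockout 1, which held under 8 M counts, gives the high points of Cox6b2 and Cox7a1.

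In the hippocampus the largest differences after Cox6a2 were those of Uqcr11, a small subunit of complex III, Cox6a1 and Cox8a. Uqcr11 was at 115, 54.5 and 45.2 CPM in the hippocampus, against 34.1 to 40.2 in the cerebellum, 28.9 to 61.5 in the cortex and 29.6 to 35.1 in the olfactory bulb. Cox6a1 was at 236, 112 and 106 CPM in the hippocampus, 146, 102 and 133 in the cortex, 87.7, 79.4 and 87.5 in the cerebellum and 58, 63.3 and 67.8 in the olfactory bulb. Cox8a was at 344, 141 and 172 CPM in the hippocampus, with 215, 111 and 208 in the cortex. In all 3 of them hippocampus wild type 1 is far above the other hippocampal libraries, which overlap the cortex. Their log2 differences of 0.85 (SE 0.24, adjusted p = 0.0171, edgeR), 0.75 (SE 0.19, adjusted p = 0.00808) and 0.69 (adjusted p = 0.0467) went to 0.35 (adjusted p = 0.311), 0.29 (0.133) and 0.22 (0.577) without hippocampus wild type 1. Uqcr11 has 2 near-identical pseudogene copies, and its call was also lost with no filter on low counts (adjusted p = 0.0938, edgeR). The call of Cox8a was also lost without any 1 olfactory bulb library, cerebellum 1 or 2 or cortex 1 or 2, at adjusted p = 0.0518 to 0.0808 (edgeR). Cox6b1, another common complex IV subunit, was higher in the hippocampus (log2 0.50, adjusted p = 0.0492, edgeR) and lower in the olfactory bulb (log2 −0.51), and these calls were lost in 13 and 10 of the 19 alternatives, with 0.08 in the hippocampus without its wild type 1 (adjusted p = 0.73, edgeR).

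Summed markers of choroid plexus, an epithelium rich in mitochondria that can come with a hippocampal dissection, were at 2360, 35 and 1870 CPM in hippocampus wild type 1, 2 and 3 and at 34.8 to 42.5 in the 3 knockout libraries. The 90 genes summed to 10700, 6440 and 6260 CPM in wild type 1, 2 and 3. The part of choroid plexus in the level of the family was not tested.

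The olfactory bulb was lowest in Cox6a1, Atp5s and Ndufb8. Cox6a1, whose 3 values there are below all other wild-type libraries, was lower by a log2 difference of −0.87 (SE 0.21, adjusted p = 0.00411, edgeR). Atp5s, a small protein named as a coupling factor of ATP synthase, was at 2.63, 6.18 and 5.69 CPM in the olfactory bulb, 7.94, 6.64 and 5.86 in the cerebellum, 10.5, 12.5 and 9.76 in the cortex and 12.3, 8.68 and 10 in the hippocampus. Its olfactory bulb values overlap the cerebellum but not the cortex or hippocampus, and its log2 difference was −0.85 (adjusted p = 0.0104, edgeR). Ndufb8, a membrane-arm subunit of complex I, was at 29.1, 35.1 and 31.3 CPM in the olfactory bulb and at 41.1 or more in every other wild-type library, a log2 difference of −0.67 (SE 0.17, adjusted p = 0.00696, edgeR). Atp5s was also higher in the cortex (log2 0.63), a call that 8 of the 19 alternatives lost, among them leaving out any 1 cortex library (adjusted p = 0.0625 to 0.0951, edgeR), cerebellum 2 or 3 or hippocampus 2 or 3 (0.0539 to 0.0588). In the olfactory bulb the calls of Cox6a1 and Atp5s held in all 19 alternatives, and that of Ndufb8 in all but the covariate fit (adjusted p = 0.0608, edgeR).

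Atp5l was higher in the cerebellum (5.75, 6.32 and 5.55 CPM) than in the cortex (1.68, 2.79 and 3.18), hippocampus (3.73, 2.91 and 3.3) and olfactory bulb (4.51, 5.37 and 3.27). The cerebellum is above every other wild-type library, with a log2 difference of 0.81 (SE 0.22, adjusted p = 0.00725, edgeR), a call that held in all 19 alternatives. Its lower level in the cortex (log2 −0.79) was lost without cortex wild type 1 (adjusted p = 0.153, edgeR), with no filter on low counts (0.0505) and with the covariate (0.215). Because Atp5l has the most near-identical copies in the family, reads could be missing from its count or could come from a copy. Such copies are common among the 90 genes: 21 of them, or 23.3%, have at least 1, compared with 7.56% of the 14945 protein-coding genes with the same minimum of counts.

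The second comparison asked whether loss of Cdr1as changes the family. No gene of the 90 passed in any region (edgeR), in the mean over regions (limma) or in the test of whether the effect of genotype differs between regions (edgeR). Few genes of any kind passed: 0.00644% of those tested in the cerebellum, 0.00634% in the cortex, 0.0062% in the hippocampus, 0.0253% in the olfactory bulb, 0.0114% in the mean over regions and 0.00568% in the interaction. DESeq2 also called 0 of the family in each region. At an unadjusted p under 0.05 by edgeR, 1 of 89 genes differed in the cerebellum, where 1.89% of all genes did, 0 of 90 in the cortex (5.64%), 0 of 90 in the hippocampus (4.01%) and 3 of 89 in the olfactory bulb (2.43%). By limma 0 of 90 did in the mean over regions (5.06%). In the interaction by edgeR 0 of 90 did, without a percentage over all genes to set beside it. The smallest adjusted p of the family was 0.949 in the cerebellum, 0.858 in the cortex, 0.953 in the hippocampus, 0.992 in the olfactory bulb and 0.908 in the mean over regions.

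The median log2 difference, knockout minus wild type, was 0.02 in the cerebellum, 0.10 in the cortex, −0.26 in the hippocampus, 0.04 in the olfactory bulb and −0.01 in the mean over regions. The median of all genes was −0.04, 0.00, −0.02, −0.01 and −0.05 in the same order. In the mean over regions 40 of the 90 genes were above 0, as were 39.1% of all genes. The hippocampal value stands out in that 87 of the 90 genes were below 0, where 46.2% of all genes were above it. The value rests on hippocampus wild type 1: without that library the median was 0.06 and 63 genes were above 0, without wild type 3 it was −0.44 and without wild type 2 −0.38. With the share of reads in no gene as a covariate the hippocampal median was 0.04. In the cortex, where 66 genes and 50.1% of all genes were above 0, the median was 0.01 without wild type 2. The cortex is the region in which libraries of the same number deviated together, and with the replicate number as a block its median was 0.11 and 5 of the 90 genes had an unadjusted p under 0.05, as did 2044 of all 15777, the smallest adjusted p in the family being 0.277 (edgeR). With the share as a covariate these were 13 of the 90 and 2891 of the 15777, the smallest adjusted p in the family being 0.125 (edgeR). In the olfactory bulb the median moved to 0.13 without the 2 libraries under 8 M counts, to −0.07 without knockout 1 and to −0.06 with the covariate.

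By role, the median log2 difference in the hippocampus was −0.24 for the complex I core, −0.28 for its accessory subunits, −0.21 for its assembly factors, −0.19 for complex II, −0.36 for complex III, −0.30 for the common subunits of complex IV, −0.25 for the F1 head, −0.16 for the c ring and −0.31 for the stalk and membrane subunits. The 3 genes above 0 there were Cox7a2l at 0.06, Cox4i2 at 0.02 and Atp5l at 0.01. In the cortex the complex I core was at 0.17, complex III at 0.16 and the stalk at 0.14, while the assembly factors were at −0.09 and complex II at 0.00. In the cerebellum the c ring was at 0.28 and complex II at −0.13, and in the olfactory bulb the assembly factors were at −0.21 and the accessory subunits at 0.09. No list of a neighbouring pathway had a gene past the threshold in any of these comparisons, and in the hippocampus the matrix carriers had a median of −0.24, the citrate cycle −0.11, glycolysis −0.07 and the biogenesis regulators 0.03.

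**Figure D3:**
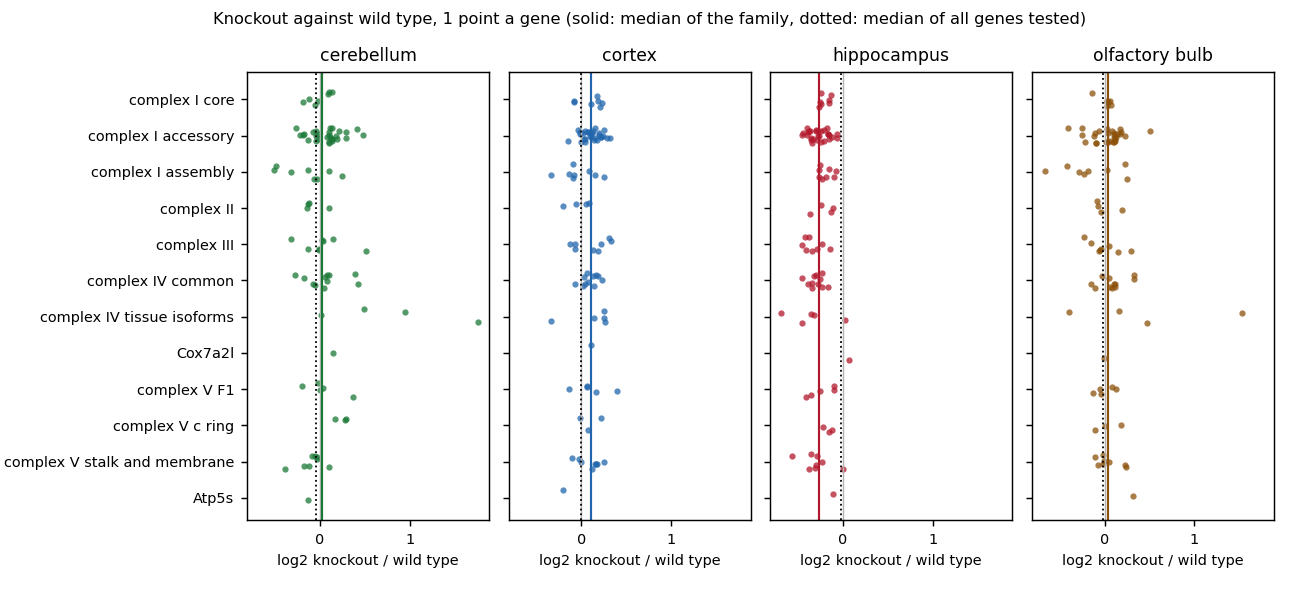
Log2 difference of knockout against wild type for each gene, by region and role, with a solid line at the median of the family and a dotted line at the median of all genes tested. The hippocampal points lie below 0 for 87 of 90 genes, with Cox7a2l, Cox4i2 and Atp5l just above it, and the tissue isoforms, which have few counts, spread most in the cerebellum and the olfactory bulb.

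Genes with the smallest p-values differed from region to region. In the cerebellum Cox8a was at 127, 94.2 and 140 CPM in wild type and 190, 144 and 149 in knockout, with a log2 difference of 0.43 (SE 0.17, adjusted p = 0.949, edgeR). The knockout values are above the wild-type values, as they were for Cox5b (58.6, 66.5 and 64.8 against 110, 72.0 and 66.8). For both genes the highest value is that of cerebellum knockout 1, which held under 8 M counts. Groups that did not overlap were found for 10 of the 90 genes in the cerebellum, against 11.3% of all genes. In the olfactory bulb Ndufb8 was at 29.1, 35.1 and 31.3 CPM in wild type and 45, 57.1 and 35.7 in knockout (log2 0.50, SE 0.19, adjusted p = 0.992, edgeR). Ndufa4, a complex IV subunit named for complex I, and Cox7a2 were likewise higher in the 3 knockout libraries, with log2 differences of 0.33 (SE 0.13) and 0.32 (SE 0.13) and the same adjusted p. They are among 7 genes whose groups did not overlap there, where 10.8% of all genes did not. For Ndufb8, Ndufa4 and Cox7a2 the highest value came from olfactory bulb knockout 2, another library under 8 M counts. In the hippocampus 2 genes did not overlap, Sdha and Cox6a2, both lower in knockout, and in the cortex 1, Cox6b2, also lower, against 9.52% and 12.9% of all genes; these names were taken after the values were seen.

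In the hippocampus Sdha, the flavoprotein of complex II, was at 336, 288 and 287 CPM in wild type and 282, 275 and 286 in knockout, a log2 difference of −0.11 (SE 0.09, adjusted p = 0.953, edgeR). Uqcrh, the hinge protein of complex III, was at 140, 96.1 and 73.2 CPM in wild type and 76.3, 65.8 and 88.4 in knockout (log2 −0.42, SE 0.22, adjusted p = 0.953, edgeR), and its groups overlap. In the cortex the smallest p-values belonged to Ndufa3, Uqcr10 and Ndufb7 above 0, with log2 differences of 0.26, 0.30 and 0.29, and to the assembly factors Ndufaf4 and Ndufaf1 and to Atp5s below it, with −0.34, −0.14 and −0.20. Averaged over regions, Ndufaf1, which helps to build complex I, had the lowest value, −0.36 (SE 0.18, adjusted p = 0.908, limma). In the olfactory bulb Ndufaf1 was at 23.6, 14.3 and 15.0 CPM in wild type and 14.9, 2.81 and 14.9 in knockout, so that knockout 2, with the fewest counts of all, is the low one, and without the 2 shallow libraries the log2 difference was 0.01. The interaction test had its smallest p-values for Ndufb8, Uqcrh and Ndufb10, all with an adjusted p of 1 (edgeR).

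The third comparison asked how the family relates to the share of reads counted in no feature. The summed level of the 90 genes in the cortex was 7710, 5670 and 7620 CPM in wild type 1 to 3, with shares of 20.34%, 56.19% and 34.9%, and 8140, 6430 and 7870 in knockout 1 to 3, with 30.47%, 53.75% and 33.61%. In the hippocampus it was 10700, 6440 and 6260 in wild type, with 37.01%, 51.32% and 52.6%, and 6800, 6070 and 6900 in knockout, with 51.89%, 55.45% and 48.33%. In both regions and genotypes the library with the highest share had the lowest sum. In the cerebellum the sums ran from 5940 to 6510 and in the olfactory bulb from 5290 to 6520, over much narrower ranges of the share.

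**Figure D4:**
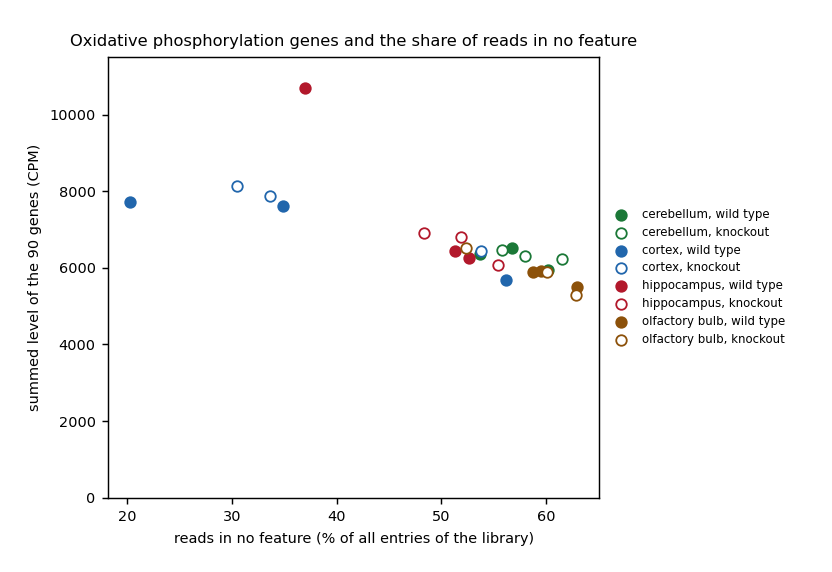
Summed level of the 90 genes (CPM) against the share of reads in no feature (% of all entries of a library) in the 24 libraries, coloured by region and filled for wild type. The libraries with a share under 40% hold 7620 CPM or more and those over 50% hold 6800 or less, and hippocampus wild type 1 is the highest point, at 10700.

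A slope on the share was fitted for each gene over all 24 libraries, with a separate mean for each region and genotype (edgeR), so that it rests on differences between replicates. Of the 90 genes, 43 fell with the share and 0 rose, while 8.07% of the 17600 genes tested fell and 8.38% rose. The median slope was −0.18 on the log2 scale per 10 percentage points of share, against −0.01 for all genes, and 88 of the 90 slopes were below 0. The count was 7 with the replicate number as a block, 41 in the wild-type libraries alone (35 of them among the 43) and 0 in the knockout libraries alone. It was 20 without the hippocampus, 37 without the cortex, 31 without hippocampus wild type 1, and in single regions 62 in the hippocampus, 24 in the cortex and 0 in the cerebellum or the olfactory bulb. In the hippocampus without wild type 1 it was 0. The 8.07% and 8.38% of all genes belong to the main fit over 24 libraries. Percentages over all genes were not set beside the other fits. Their counts therefore do not separate the family from what such fits call among all genes. Because a share is a property of a library, whatever else differed between these libraries cannot be told apart from it.

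By role, in complex III 7 of 8 genes fell with the share, in the F1 head 4 of 5, in the c ring 3 of 3, in the complex I core 4 of 7, among its accessory subunits 15 of 29, among the common complex IV subunits 6 of 11, in the stalk and membrane part of complex V 3 of 8 and in complex II 1 of 4. Of the 8 complex I assembly factors and of the 5 tissue isoforms of complex IV, 0 did. The median slope was −0.28 for the c ring, −0.26 for the common complex IV subunits, −0.24 for complex III, −0.20 for the complex I core and for the F1 head, −0.15 for complex II and −0.03 for the assembly factors. Beside the family, 15 of 17 glycolytic genes fell with a median of −0.21, as did 8 of 18 in the citrate cycle and 5 of 8 matrix carriers, while of the 16 biogenesis regulators 1 rose and 0 fell and of 37 other assembly factors 1 rose and 4 fell.

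Ndufa11, an accessory subunit of complex I, had the steepest slope, −0.36 (SE 0.08, adjusted p = 0.0019, edgeR). In the cortex it was at 46.6, 18.3 and 45.7 CPM in wild type and 38.0, 37.7 and 45.2 in knockout, and in the hippocampus at 71.3, 26.7 and 35.6 and at 37.6, 35.2 and 42.0. Cortex wild type 2 is the low value and hippocampus wild type 1 the high one, and without cortex wild type 2 the slope was −0.30 (adjusted p = 0.0606, edgeR). Cox7c, a small complex IV subunit, had a slope of −0.32 (adjusted p = 0.000884, edgeR), with 87.0, 44.8 and 67.6 CPM in wild-type cortex and 121, 56.5 and 55.3 in wild-type hippocampus. Uqcr11 had −0.31 (adjusted p = 0.00266, edgeR), and −0.29 without cortex wild type 2 (adjusted p = 0.0535, edgeR). Cox7c has 3 near-identical pseudogene copies and Uqcr11 has 2. At the other end Ndufaf5, an assembly factor, had a slope of 0.00 (adjusted p = 0.974, edgeR) and Atp5l one of 0.21 (adjusted p = 0.41, edgeR), the only 2 values above 0.

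**Figure D5:**
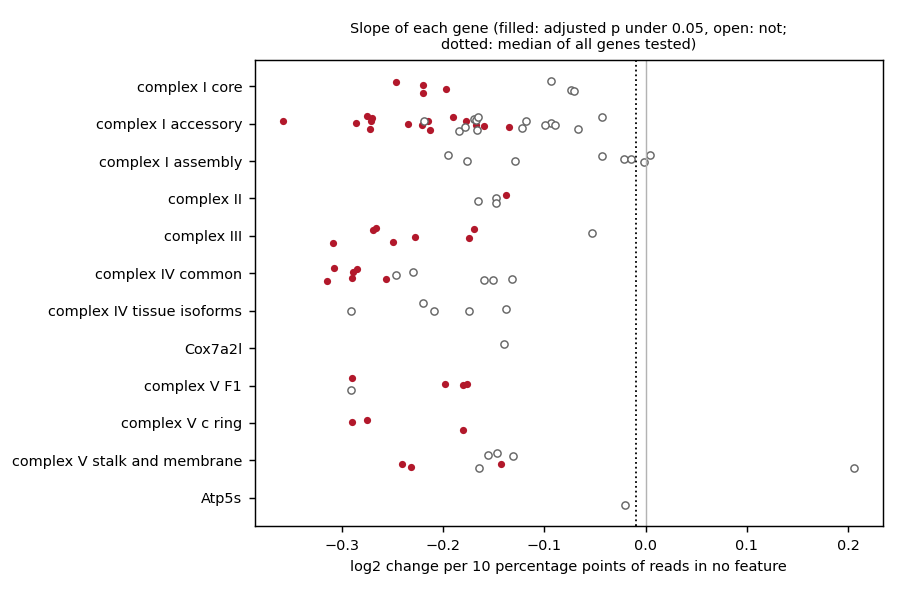
Slope of each of the 90 genes on the share of reads in no feature (log2 change per 10 percentage points), by role; filled points have an adjusted p under 0.05 and the dotted line is the median of all genes tested, −0.01. All filled points lie below 0, and the assembly factors of complex I and the tissue isoforms of complex IV have none.

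The family is short: the median length of annotated exon was 1631 bases over the 90 genes and 4081 over the 16795 genes tested that have a length. Across the 90 genes the slope correlated with exon length at a Spearman rho of 0.43, shorter genes having the steeper fall, and across all 16795 at 0.13. Genes are not independent replicates, all slopes come from the same 24 libraries, and 97.8% of the family had a slope below 0 against 53.8% of all genes with a length. Of the 11 genes whose promoter windows hold the NRF1 core, Uqcr11, Uqcrc1, Cox6a1, Ndufa8, Ndufa11, Atp5g2 and Atp5k were among the 43 that fell with the share, and Ndufaf4, Ndufaf5, Atp5j and Atp5l were not.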

How the data were processed

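Total RNA of 24 libraries was measured. The authors deposited raw counts for each gene, with a table for each library, on the mm9 build. The submitters' processing notes name HTSeq 0.6.1p1, STAR 2.5.1b and bcl2fastq 2.17.1.14. Their settings and any use of strand in counting are not stated in the sources used here, so reads of overlapping genes on opposite strands may be mixed. The summary entries (no feature, ambiguous, not unique and others) stayed out of library sizes and of the tests, and reads in no feature were 20.34% to 62.92% of entries. Gene names and exon lengths came from GENCODE for GRCm38, a later build, and matched 32897 of 37620 identifiers (98.56% of counts); promoter sequences came from RefSeq for GRCm38.p6.

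Counts were tested in R 4.3.3 with edgeR 4.0.16 (quasi-likelihood F-test, TMM, filterByExpr with a minimum count of 10, robust) in each region, over the 12 wild-type libraries for regions, and over all 24 for the interaction and the slope on the share in no feature. For the mean over regions, limma 3.58.1 was run on log2 CPM with a prior count of 2, averaged by replicate number. Tests are two-sided, and p-values were adjusted by Benjamini-Hochberg over all genes tested. CPM in the text uses TMM over the 24 libraries. The ratios of Cox6a2 have exact 95% intervals that cover counting error only. DESeq2 1.42.0, its size factors, other filters, the share as a covariate, a replicate block, the libraries under 8 M counts and each single library were tried as alternatives. The scripts were tested on simulated data.

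The members, role lists, marker lists and tests were chosen with earlier results of these data known. Named genes were those called or, in each knockout comparison, the 3 smallest p-values in each direction; the 3 largest called regional differences in each direction; the isoform families; the 3 extreme slopes; the 3 smallest interaction p-values; and the 3 highest and lowest levels per kilobase. Across genes, deviations from the group means in the cortex correlated at r = 0.44, 0.59 and 0.18 between a knockout and a wild-type library of one number. The main cortex test did not use this, and the replicate block was an alternative. Cortex wild type 2 and knockout 2 also had similar shares in no feature, 56.19% and 53.75%, while the other cortex libraries had 20.34% to 34.9%. Whether libraries of one number are paired was not tested. In the other regions r was −0.21 to 0.12. Between regions, wild-type libraries of one number correlated in all 3 pairs at 0.38 to 0.42 for cerebellum and cortex and 0.11 to 0.17 for cerebellum and olfactory bulb, at 0.1 to 0.2 for cortex and olfactory bulb, and not in all 3 pairs above 0.1 for cerebellum or cortex with hippocampus or for hippocampus with olfactory bulb.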

Additional observations from a re-analysis of the deposited data

How the results depend on the processing

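Knockout against wild type called 0 of the 90 genes in every alternative run, in each region, the mean over regions and the interaction. Leaving out 1 library at a time, the genes called numbered 13 to 38 across wild-type regions, 4 to 12 in the cerebellum, 2 to 19 in the cortex, 2 to 37 in the hippocampus, 4 to 25 in the olfactory bulb and 31 to 51 for the slope on the share in no feature. DESeq2 called 18 in the olfactory bulb, no low-count filter left 9 in the hippocampus, and the replicate block gave 14 in the cerebellum, 22 across regions (17 of the 18) and 13 in the olfactory bulb (8 of its 10). With the share as a covariate 28 genes differed across regions (13 of the 18) and 15 in the cortex (2 of its 5). Without the libraries under 8 M counts, an alternative chosen after seeing the data, the olfactory bulb had 6, of which 4 were among its 10. The slope was called for 7 genes with the replicate block, 0 in knockout libraries, 20 without the hippocampus, and, in single regions, 24 in the cortex, 0 in the cerebellum or the olfactory bulb and 0 in the hippocampus once wild type 1 was left out. Percentages over all genes were not set beside these alternative counts, and the cause of the moves was not tested.

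Differences near 0 changed sign. For knockout in the hippocampus, the 13 alternatives gave −0.107 to 0.145 for Atp5l, −0.163 to 0.375 for Cox4i2 and −0.036 to 0.252 for Cox7a2l. Among them, Atp5l was at −0.005 with the replicate block and −0.003 in the fit over 24 libraries. In the mean over regions Ndufv3 ranged from −0.037 to 0.239 over 13 alternatives, and was at −0.037 without all libraries of knockout replicate 1. In the olfactory bulb Ndufaf1 was at 0.008 without the shallow libraries. The slope of Atp5l was −0.084 with the block and −0.101 in the hippocampus alone. That of Ndufaf5 was −0.109 with the block, −0.005 without the shallow libraries, −0.043 in wild type, −0.074 without the cortex, −0.013 without the olfactory bulb, −0.245 in the hippocampus alone and −0.017 to 0.045 leaving out 1 library. That of Uqcr11 was 0.096 in the olfactory bulb alone. Olfactory bulb wild type 1 and knockout 2 held 0 counts of Cox4i2, Cox6b2, Cox7a1 and Ndufa4l2, while the other olfactory bulb libraries held 8 to 36 of each; these 2 libraries had under 8 M counts and also detected few genes (16483 and 14393), and whether depth alone accounts for the zeros was not tested.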
